A study of Homo sapiens with 20 samples.

Results

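The endoplasmic reticulum (ER) unfolded protein response was followed through 10 genes, chosen by symbol: the sensors ERN1 and ATF6, the transcription factor XBP1, the chaperones HSPA5 and HSP90B1, the co-chaperones DNAJB9, SDF2L1 and DNAJC3, and the degradation factors HERPUD1 and EDEM1. Of these, 9 had a named probe set among the 17687 genes measured, each with 1 probe set. HSP90B1, an ER paralogue of the cytosolic HSP90 chaperones, had no probe set under its name and was not analysed here. The cells were Rh30 and Rh41, established alveolar rhabdomyosarcoma lines that carry a PAX3-FOXO1 fusion gene. Rhabdomyosarcoma is a tumour with features of skeletal muscle precursors.

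The 20 arrays fell into 8 groups by sample title. Rh30 received QC6352 at 200 nM or the vehicle DMSO, with 3 arrays in each group, and so did Rh41. QC6352 inhibits KDM4 enzymes, which take methyl groups off lysines of histone H3, and its exposure lasted 48 h. For the knockdowns, Rh30 was transduced with a short hairpin RNA that targets KDM4B, or with a control hairpin. Other Rh30 cultures received small interfering RNA (siRNA), either targeting KDM4C or as a control. RNA was taken after 72 h in these 4 groups, which hold 2 arrays each. These groups are written shKDM4B, shControl, siKDM4C and siControl. Each knockdown group is named for its target gene alone, no rescue group is among the samples, and the knockdowns were made in Rh30 only. The labels number the arrays of a group as biological replicates, without saying whether cultures, passages or days differed. The p-values set a difference against the spread between arrays of a group, estimated over all 8 groups and moderated across genes. What that spread covers is therefore not known. In RNA from whole cultures, fewer cells of a type and less RNA per cell cannot be told apart.

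The labels of 10 Rh30 arrays, those placed here with QC6352, DMSO, siKDM4C or siControl, give 2 different groups: the submitters' sample name in the description differs from the title, the source name and the treatment. Groups follow the titles here, with 1 exception: the title of siKDM4C replicate 2 names a hairpin against KDM4C, and the array was placed with siKDM4C by its source name and treatment. Counts by sample name are given beside the results. The labels of the Rh41 arrays and of the hairpin arrays agree. KDM4B was at 6.01 and 6.15 log2 on the shKDM4B arrays, against 6.74 and 7.30 on the shControl arrays, a log2 fold change of -0.94 ± 0.23 (SE; limma, adjusted p = 0.012). KDM4C was at 6.25 and 6.32 on the siKDM4C arrays, against 6.48 and 6.54 on the siControl arrays, which did not pass the test (-0.23 ± 0.19; limma, adjusted p = 0.651). With the hairpin KDM4D was 0.94 ± 0.28 higher (limma, adjusted p = 0.0343), and KDM4A, KDM4C and KDM4E did not pass. With QC6352, KDM4A was higher in Rh30 (0.49) and Rh41 (0.51) and KDM4D lower (-0.80 and -0.95), without a call for the others. KDM4B, KDM4D and KDM4E lay under the highest background probe set of every array, and KDM4C lay under it on every Rh30 array. The missing call for KDM4C between the siRNA groups therefore does not show that the knockdown failed. The muscle regulator MYOG lay at 9.03 to 9.34 on the 3 arrays titled QC6352 in Rh30 and at 11.26 to 11.82 on the other 11 Rh30 arrays. By sample name, 1 of these 3 arrays is a siControl array and 2 are siKDM4C arrays. Array medians lay at 6.72 to 6.75 log2 on the siKDM4C and siControl arrays, at 6.95 to 6.99 on the other 10 Rh30 arrays and at 7.22 to 7.25 on the 6 Rh41 arrays.

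Of the markers of muscle and rhabdomyosarcoma, 7 of 7 stood above the highest background probe set on at least 1 array. All 5 measured blood markers stayed under it on every array, as did 4 of 5 endothelial markers, 3 of 6 epithelial markers (EPCAM, CDH1 and KRT18) and 2 of 5 fibroblast markers (DCN and LUM). The mean level of the 7 muscle markers was 9.78 to 9.91 log2 on Rh30 QC6352 arrays, against 10.89 to 10.95 on Rh30 DMSO arrays. It was 10.07 to 10.21 on shKDM4B arrays, against 10.71 to 10.81 on shControl arrays, and 10.46 to 10.60 on Rh41 QC6352 arrays, against 10.51 to 10.62 on Rh41 DMSO arrays. The mean of the 6 epithelial markers was 6.31 to 6.50 on Rh30 QC6352 arrays, against 5.81 to 6.02 on Rh30 DMSO arrays. It was 6.08 to 6.18 on shKDM4B arrays, against 5.80 to 5.82 on shControl arrays. The mean of the 5 fibroblast markers was 6.29 to 6.37 on Rh30 QC6352 arrays, against 6.06 to 6.17 on Rh30 DMSO arrays, and 2 of the 5 passed the test, both higher. The part of these shifts in the results below was not tested.

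Set against the same highest background probe set, HSPA5, XBP1, ATF6 and HERPUD1 stood above it on all 20 arrays. ERN1 lay under it on all 20 arrays, by 0.18 to 2.30 log2, SDF2L1 on 16, EDEM1 on 9, DNAJB9 on 5 and DNAJC3 on 2. The levels and changes of ERN1 are therefore given on the deposited scale only, without a fold.

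The ER folds secreted and membrane proteins, and misfolded protein there sets off the unfolded protein response. Its membrane sensors are IRE1, which ERN1 encodes, PERK, which EIF2AK3 encodes, and ATF6. Active IRE1 splices XBP1 mRNA, active ATF6 is cut and moves to the nucleus, and PERK phosphorylates eIF2alpha, which favours translation of ATF4. Spliced XBP1 and cut ATF6 bind ER stress elements (ERSE, ERSE-II) and the unfolded protein response element (UPRE) at genes of chaperones and of ER-associated degradation. The probe sets used here report total mRNA of each gene, so XBP1 splicing, ATF6 cutting and PERK phosphorylation were not measured.

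These elements were searched in the 250 bases upstream of each gene start, with RefSeq sequences of build GRCh38.p14, which held all 10 genes. ERSE was searched as CCAAT and CCACG with 9 bases of any kind between them, ERSE-II as ATTGG and CCACG with 1 base between them, and UPRE as TGACGTGG. Both strands were read, and each of the 3 patterns was counted separately, with no overlap between matches in these 10 genes. ERSE was present in 26 of 34943 promoters (0.0744%), ERSE-II in 18 (0.0515%) and UPRE in 215 (0.615%). Among the 10 genes, 3 held ERSE (HSPA5, HSP90B1 and XBP1), 2 held ERSE-II (HERPUD1 and SDF2L1) and 0 held UPRE. The 6 windows below are written 5′ to 3′ on the strand of the gene and end at the base before the gene start. The first 4 are the measured genes with a match, whose mRNA moved differently, and DNAJB9 and ERN1 are the genes with the largest changes, without a match. Capitals mark the matched element.
HSPA5 (chr9:125241344-125241593, minus strand): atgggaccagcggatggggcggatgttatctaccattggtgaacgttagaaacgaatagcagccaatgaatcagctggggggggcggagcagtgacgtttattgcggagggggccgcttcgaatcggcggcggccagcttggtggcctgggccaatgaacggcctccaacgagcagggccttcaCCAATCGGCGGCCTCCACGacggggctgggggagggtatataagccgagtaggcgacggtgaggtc
XBP1 (chr22:28800570-28800819, minus strand): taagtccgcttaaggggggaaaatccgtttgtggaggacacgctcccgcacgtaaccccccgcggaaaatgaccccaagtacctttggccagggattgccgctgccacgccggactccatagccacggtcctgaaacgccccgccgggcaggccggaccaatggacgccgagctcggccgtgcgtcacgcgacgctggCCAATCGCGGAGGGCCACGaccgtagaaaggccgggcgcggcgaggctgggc
HERPUD1 (chr16:56931892-56932141, plus strand): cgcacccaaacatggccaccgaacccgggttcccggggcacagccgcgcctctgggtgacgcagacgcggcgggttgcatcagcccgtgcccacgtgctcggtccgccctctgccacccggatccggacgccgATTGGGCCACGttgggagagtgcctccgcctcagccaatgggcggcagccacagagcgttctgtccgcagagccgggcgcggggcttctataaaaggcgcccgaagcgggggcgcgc
SDF2L1 (chr22:21642052-21642301, plus strand): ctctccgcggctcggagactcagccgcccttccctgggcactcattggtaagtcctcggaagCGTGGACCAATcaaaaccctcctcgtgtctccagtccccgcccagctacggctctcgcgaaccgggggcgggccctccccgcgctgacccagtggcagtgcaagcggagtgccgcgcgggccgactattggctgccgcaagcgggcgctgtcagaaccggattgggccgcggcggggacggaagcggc
DNAJB9 (chr7:108569624-108569873, plus strand): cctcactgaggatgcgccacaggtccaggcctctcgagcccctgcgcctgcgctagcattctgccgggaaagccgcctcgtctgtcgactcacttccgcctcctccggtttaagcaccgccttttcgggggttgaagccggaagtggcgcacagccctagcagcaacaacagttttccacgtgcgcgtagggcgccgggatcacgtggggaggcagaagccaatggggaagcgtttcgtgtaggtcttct
ERN1 (chr17:64130145-64130394, minus strand): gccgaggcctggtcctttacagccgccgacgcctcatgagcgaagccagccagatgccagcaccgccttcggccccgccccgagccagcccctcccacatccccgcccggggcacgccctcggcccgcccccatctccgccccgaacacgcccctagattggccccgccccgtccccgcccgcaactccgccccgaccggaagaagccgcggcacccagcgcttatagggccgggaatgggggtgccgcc

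The ERSE of HSPA5 spans bases 66 to 48 upstream of its start, and that of XBP1 bases 52 to 34. The ERSE-II of HERPUD1 spans bases 117 to 107, and that of SDF2L1, on the opposite strand, bases 188 to 178. These matches describe the sequence only, and binding was not measured. The absence of a match says only that these letters are not in this window.

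Treatment of Rh30 with QC6352 was followed by opposite changes within the response: DNAJB9, HSPA5 and HERPUD1 were higher, and ERN1 and ATF6 were lower. XBP1, SDF2L1, EDEM1 and DNAJC3 did not pass the test. These directions do not divide sensors from other genes, as the sensor gene EIF2AK3, not among the 9, was higher (0.76). Of the 9 genes, 5 passed the test, 3 higher and 2 lower, whereas 36.3% of all genes passed, 19.9% higher and 16.5% lower. The median log2 fold change of the 9 genes was 0.19, and that of all genes was 0.05.

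ERN1 encodes IRE1, the kinase and endoribonuclease of the ER membrane. It was at 5.88, 6.15 and 5.69 log2 on the Rh30 QC6352 arrays, against 7.08, 7.48 and 7.21 on the Rh30 DMSO arrays. Every QC6352 array was below every DMSO array, and the log2 fold change was -1.35 ± 0.17 (SE; limma, adjusted p = 3.39e-06), with both groups under the highest background probe set. ATF6 encodes the sensor that is cut in the Golgi. It was at 9.09, 9.23 and 9.02 on QC6352 arrays, against 9.61, 9.57 and 9.48 on DMSO arrays. The groups did not overlap and the change was -0.44 ± 0.09 (limma, adjusted p = 0.000639). XBP1, the transcription factor downstream of IRE1, was at 9.10, 9.05 and 8.87 on QC6352 arrays, against 8.85, 8.75 and 8.81 on DMSO arrays. Although these groups did not overlap, XBP1 did not pass the test (0.20, 95% confidence interval -0.01 to 0.42; limma, adjusted p = 0.136).

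DNAJB9 encodes ERdj4, an ER co-chaperone of BiP that is induced by ER stress. It was at 9.25, 9.05 and 9.20 on Rh30 QC6352 arrays, against 7.72, 8.15 and 7.78 on Rh30 DMSO arrays. The gap between the lowest QC6352 array and the highest DMSO array was wider than the spread within either group, and the change was 1.28 ± 0.14 (limma, adjusted p = 3.97e-07), or 2.43-fold higher, with 2 of the 3 DMSO arrays under the highest background probe set. HSPA5 encodes BiP, the main HSP70 chaperone of the ER, and its promoter holds the ERSE shown above. It was at 12.23, 12.09 and 12.09 on QC6352 arrays, against 11.83, 11.80 and 11.83 on DMSO arrays, without overlap. Its change of 0.31 ± 0.08 (limma, adjusted p = 0.00295) is 1.24-fold. HERPUD1, a membrane scaffold of ER-associated degradation with an ERSE-II, was at 10.59, 10.46 and 10.38 on QC6352 arrays, against 10.14, 10.18 and 10.19 on DMSO arrays. These groups did not overlap either, and the change was 0.31 ± 0.08 (limma, adjusted p = 0.0051).

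The other 3 genes overlapped between QC6352 and DMSO in Rh30 and did not pass the test. SDF2L1, part of the BiP chaperone complex and holder of the other ERSE-II, was at 7.09, 7.54 and 7.51 on QC6352 arrays, against 7.63, 7.62 and 7.52 on DMSO arrays (-0.21, 95% confidence interval -0.47 to 0.06). EDEM1, which helps deliver misfolded glycoproteins to degradation, differed by 0.19 (95% confidence interval -0.09 to 0.48). DNAJC3, the ER co-chaperone p58IPK, differed by -0.07 (95% confidence interval -0.33 to 0.19). The 5 calls held when any 1 of the 6 compared arrays was left out. By sample name, 0 of the 9 genes passed in this comparison, ERN1 was at 0.19 and ATF6 at 0.23, both reversed and without a call, and 0.503% of all genes passed.

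**Figure D1:**
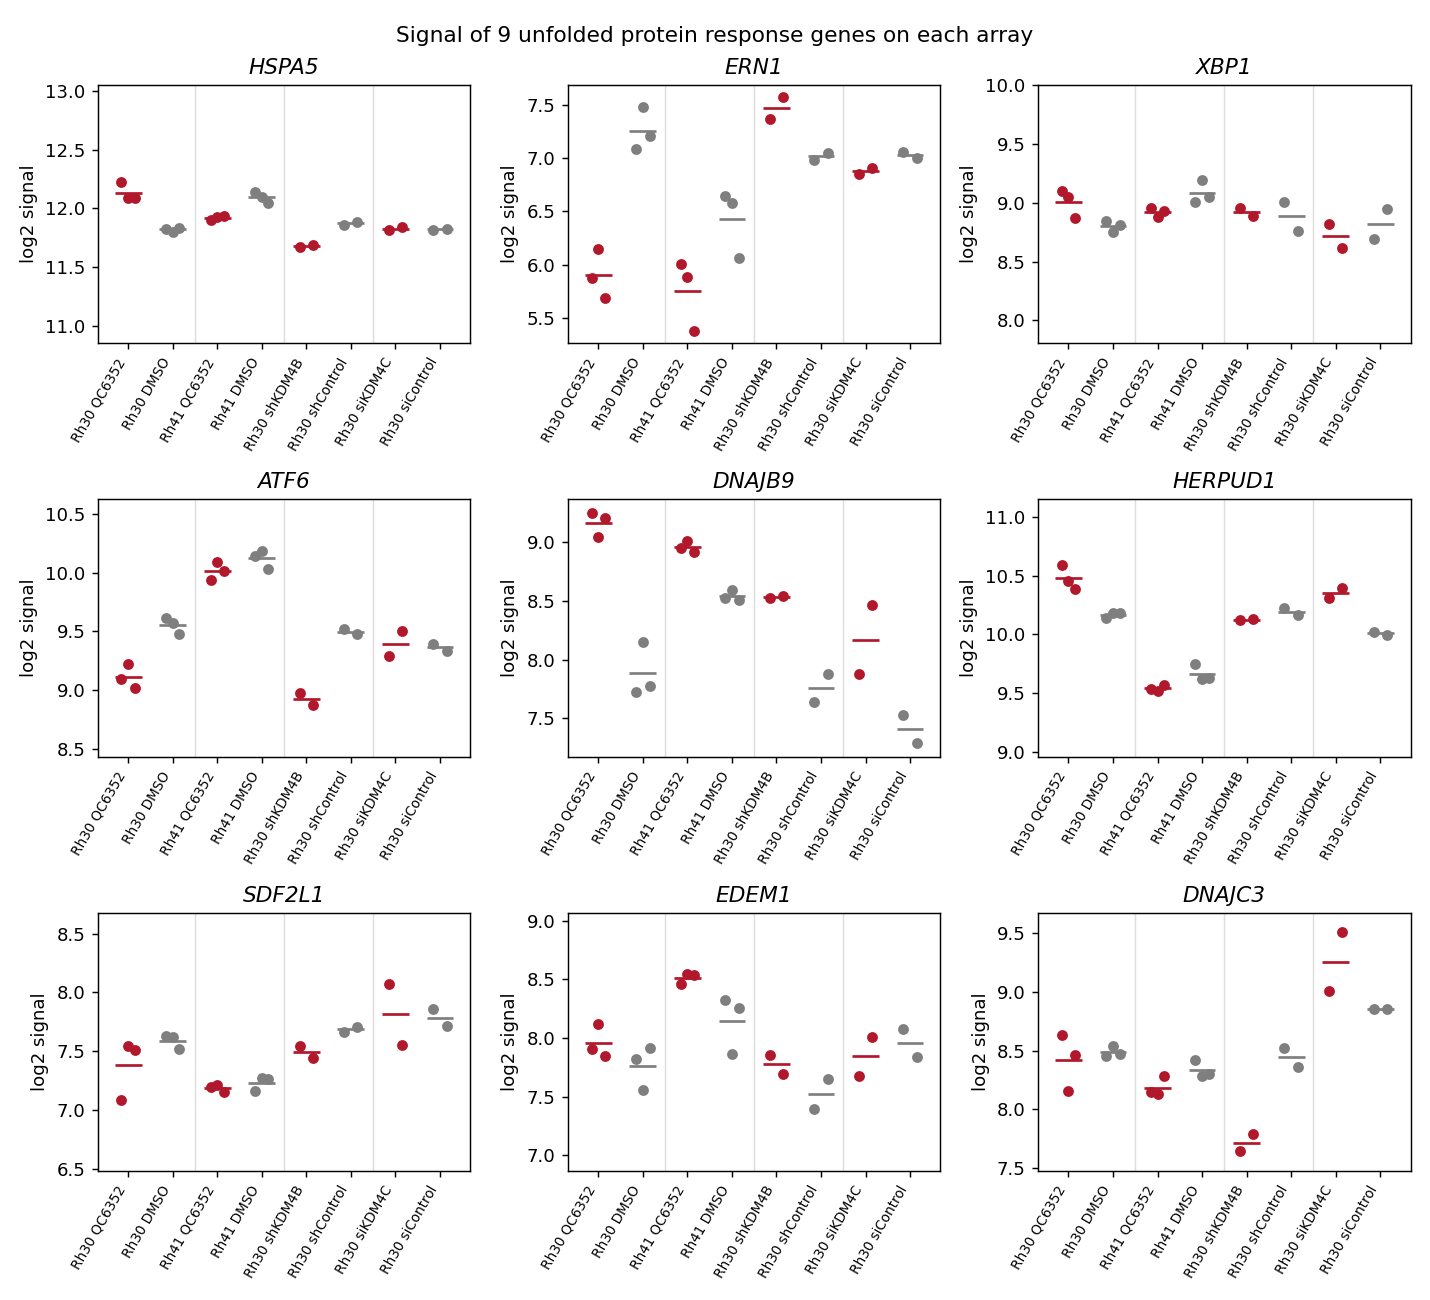
Log2 signal of the 9 genes on each of the 20 arrays, 1 panel per gene. Every vertical axis covers the same number of log2 units, except that of ERN1, which covers more. Points are arrays, bars are group means, red groups are treated and grey groups are controls. ERN1 and DNAJB9 separate most between Rh30 QC6352 and Rh30 DMSO, at log2 fold changes of -1.35 and 1.28, and XBP1 lies between 8.61 and 9.20 on all arrays.

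In Rh41, 2 of the 9 genes passed the test with QC6352, ERN1 lower and DNAJB9 higher. The share of all genes was 19.7%, with 10.9% higher and 8.80% lower. The median of the 9 genes was -0.12, against 0.02 over all genes. ERN1 was at 6.01, 5.88 and 5.37 log2 on Rh41 QC6352 arrays, against 6.65, 6.58 and 6.06 on Rh41 DMSO arrays. The ranges lay close without overlap, and the change was -0.67 ± 0.17 (limma, adjusted p = 0.00791). Without QC6352 replicate 3, the lowest array, the ERN1 change was -0.48 and did not pass (limma, adjusted p = 0.0606). DNAJB9 was at 8.95, 9.01 and 8.92 on QC6352 arrays, against 8.53, 8.59 and 8.51 on DMSO arrays, without overlap. The change was 0.42 ± 0.14 (limma, adjusted p = 0.0367), and leaving out any 1 of the 6 Rh41 arrays ended the call, with an adjusted p of 0.0691 to 0.108 (limma).

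HSPA5 was at 11.90, 11.92 and 11.94 log2 on Rh41 QC6352 arrays, against 12.14, 12.10 and 12.05 on Rh41 DMSO arrays. All QC6352 arrays were the lower ones, yet the change of -0.18 (95% confidence interval -0.34 to -0.01) did not pass over all genes (limma, adjusted p = 0.127). EDEM1 was at 8.46, 8.54 and 8.54 on QC6352 arrays, against 8.32, 7.86 and 8.25 on DMSO arrays. Its difference of 0.37 ± 0.14 missed the threshold (limma, adjusted p = 0.0686), with 1 DMSO array well below the other 2. HERPUD1 differed by -0.12, XBP1 by -0.16, DNAJC3 by -0.15, ATF6 by -0.10 and SDF2L1 by -0.05, and none of these 5 passed. A fit of the 10 arrays whose labels agree, chosen after seeing the data, called 2 of the 9 genes in Rh41, again ERN1 and DNAJB9. With all 20 arrays grouped by sample name, which widens the shared spread, 0 of 9 passed.

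The difference between the lines was tested as the Rh41 response minus the Rh30 response. It passed for 3 of the 9 genes, all lower in Rh41. Of all genes 20% passed, made up of 9.45% of all genes lower and 10.5% higher. The difference was -0.87 ± 0.19 for DNAJB9 (limma, adjusted p = 0.00315), -0.49 ± 0.11 for HSPA5 (limma, adjusted p = 0.00311) and -0.43 ± 0.11 for HERPUD1 (limma, adjusted p = 0.0111). Thus DNAJB9 was higher with QC6352 in both lines and its change was smaller in Rh41. HSPA5 and HERPUD1 were higher with QC6352 on all Rh30 arrays, and their Rh41 QC6352 values lay below the Rh41 DMSO values without passing the test. For ERN1 the difference was 0.68 ± 0.24 and narrowly missed the threshold (limma, adjusted p = 0.0553), as did ATF6 at 0.34 ± 0.13 (limma, adjusted p = 0.0741). The 3 calls held when any 1 of the 12 compared arrays was left out. By sample name, 0 of the 9 genes passed in this comparison.

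With the KDM4B hairpin in Rh30, ATF6 and DNAJC3 were lower and DNAJB9 was higher. These were 3 of 9 genes, against 11.6% of all genes, 5.26% higher and 6.31% lower. The median of the 9 genes was -0.07, against 0.03 over all genes. ATF6 was at 8.97 and 8.87 log2 on shKDM4B arrays, against 9.52 and 9.48 on shControl arrays, a change of -0.57 ± 0.11 (limma, adjusted p = 0.00186). DNAJC3 was at 7.65 and 7.79 on shKDM4B arrays, against 8.52 and 8.36 on shControl arrays, a change of -0.73 ± 0.15 (limma, adjusted p = 0.00384). DNAJB9 was at 8.53 and 8.54 on shKDM4B arrays, against 7.64 and 7.87 on shControl arrays, a change of 0.78 ± 0.17 (limma, adjusted p = 0.0041). None of these 3 genes overlapped between its pairs of arrays, but neither did ERN1, HSPA5, HERPUD1, SDF2L1 and EDEM1, which did not pass. The shKDM4B values of ATF6 and DNAJC3 were the lowest of all 8 groups. DNAJC3 on both shKDM4B arrays and DNAJB9 on both shControl arrays lay under the highest background probe set, so the sizes of these changes are less certain.

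With 2 arrays a group, some of these calls rest on single arrays. Without shControl replicate 1, the adjusted p was 0.0619 for DNAJB9 and 0.0511 for DNAJC3 (limma), and without shKDM4B replicate 1 it was 0.0535 for DNAJC3. ERN1 was at 7.37 and 7.58 on shKDM4B arrays, against 6.99 and 7.05 on shControl arrays, and its difference of 0.46 ± 0.21 did not pass (limma, adjusted p = 0.191). HSPA5 was at 11.68 and 11.69 on shKDM4B arrays, against 11.86 and 11.88 on shControl arrays (-0.19, 95% confidence interval -0.39 to 0.01; not passed). XBP1, HERPUD1, SDF2L1 and EDEM1 differed by 0.04, -0.07, -0.20 and 0.26 without passing. A fit of the 10 arrays whose labels agree called the same 3 genes, and with all arrays grouped by sample name only ATF6 passed.

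The QC6352 response in Rh30 was set against the hairpin response by testing their difference, which passed for 4 of 9 genes, 3 higher and 1 lower. Among all genes 24.5% passed, 13% higher and 11.4% lower. Exposure was 48 h for QC6352 and 72 h for the hairpin, and the difference includes that of the times. ERN1 had the largest difference of the 9 genes, -1.81 ± 0.27 (limma, adjusted p = 5.35e-05). HSPA5 differed by 0.50 ± 0.12 (limma, adjusted p = 0.00434), DNAJC3 by 0.66 ± 0.20 (limma, adjusted p = 0.0202) and HERPUD1 by 0.38 ± 0.13 (limma, adjusted p = 0.0382). The call of HERPUD1 ended when any array other than QC6352 replicates 2 and 3 was left out, with an adjusted p of up to 0.112 (limma), and that of DNAJC3 ended without shControl replicate 1, shKDM4B replicate 1 or QC6352 replicate 1. DNAJB9 was higher in both responses, and their difference of 0.50 (95% confidence interval 0.05 to 0.96) did not pass over all genes (limma, adjusted p = 0.102). ATF6 was lower in both, with a difference of 0.13 (95% confidence interval -0.17 to 0.43) that did not pass. By sample name, 1 of the 9 genes passed, ATF6 at 0.80, and 3.47% of all genes did.

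**Figure D2:**
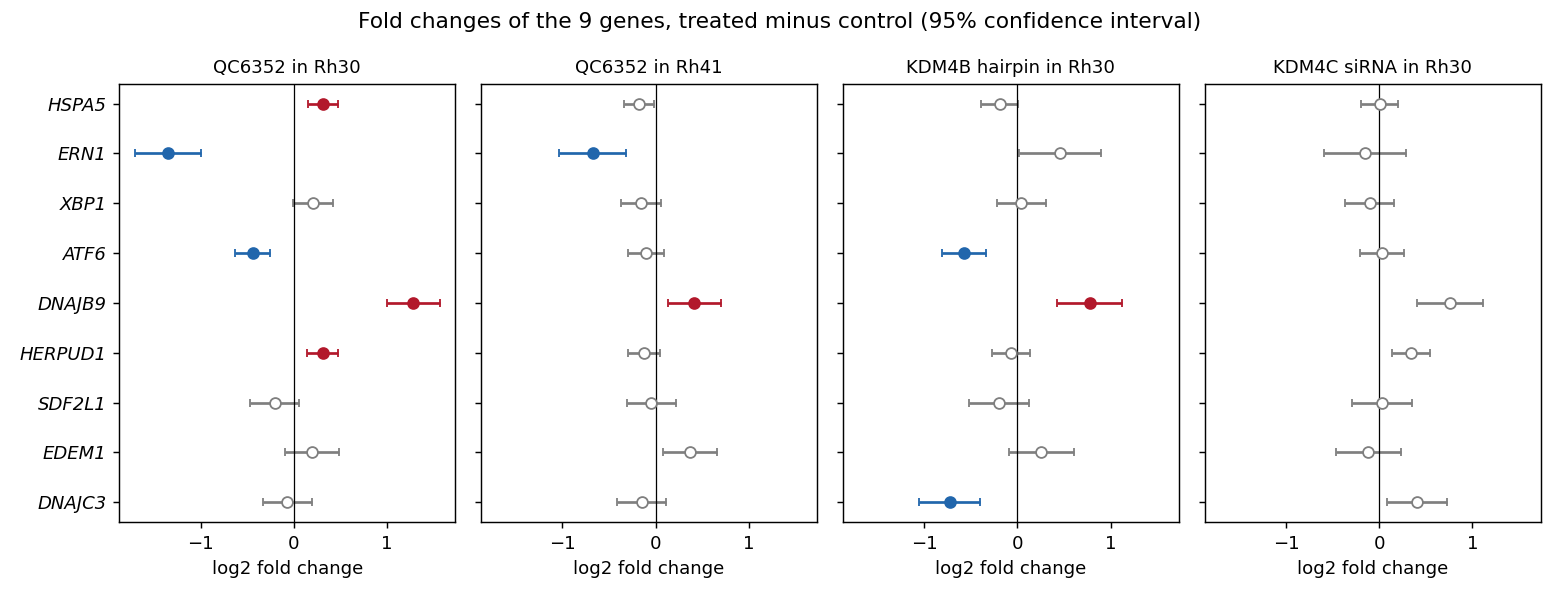
Log2 fold change of each of the 9 genes, treated minus control, with its 95% confidence interval, in the 4 treatment comparisons. Filled points passed the test over all genes (red higher, blue lower) and open grey points did not. DNAJB9 lies above 0 in all 4 panels, at 1.28, 0.42, 0.78 and 0.76, and is filled in the first 3.

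With siRNA against KDM4C, 0 of the 9 genes passed the limma test, against 0.458% of all genes, or 81 genes, while 2446 genes, 3 of the 9 among them, had an unadjusted p under 0.05. DNAJB9 was at 7.87 and 8.47 log2 on siKDM4C arrays, against 7.53 and 7.29 on siControl arrays, without overlap. The value of 7.29 lay under the highest background probe set of its array. Its difference of 0.76 ± 0.17 missed the threshold (limma, adjusted p = 0.0507). HERPUD1 was at 10.31 and 10.39 on siKDM4C arrays, against 10.02 and 9.998 on siControl arrays (0.34 ± 0.10; limma, adjusted p = 0.119). DNAJC3 was at 9.01 and 9.51 on siKDM4C arrays, against 8.86 on both siControl arrays (0.40 ± 0.15; limma, adjusted p = 0.235). Without siKDM4C replicate 1 all 3 passed, DNAJB9 at 1.06, HERPUD1 at 0.38 and DNAJC3 at 0.65, a fit in which the lone siKDM4C array is assumed to vary like the other groups. That lone array is the one whose title names a hairpin. The remaining 6 genes differed by -0.15 to 0.03. KDM4C itself did not pass the test between these arrays, as given above. It lay under the highest background probe set on all of them, so its knockdown is not settled here. By sample name 0 of the 9 genes passed as well.

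**Figure D3:**
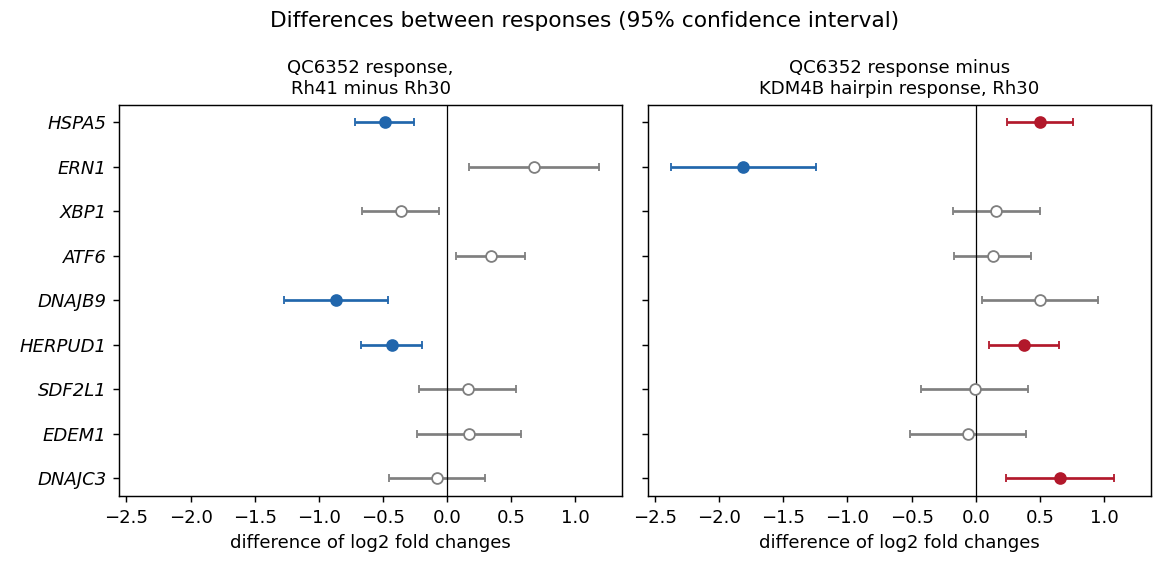
Difference between log2 fold changes for each of the 9 genes, with its 95% confidence interval. At left is the QC6352 response in Rh41 minus that in Rh30, and at right the QC6352 response minus the KDM4B hairpin response in Rh30. Filled points passed the test over all genes (red above 0, blue below 0). DNAJB9, HSPA5 and HERPUD1 are filled at left, at -0.87, -0.49 and -0.43, and ERN1 stands apart at right, at -1.81.

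Before any inhibitor, Rh41 and Rh30 differed in 8 of the 9 genes with DMSO, 5 higher and 3 lower in Rh41, against 57.6% of all genes, 40.7% higher and 16.8% lower. ATF6 was at 10.14, 10.18 and 10.03 log2 on Rh41 DMSO arrays, against 9.61, 9.57 and 9.48 on Rh30 DMSO arrays (0.56 ± 0.09; limma, adjusted p = 2.9e-05). DNAJB9 differed by 0.66 ± 0.14 (limma, adjusted p = 0.000393), HERPUD1 by -0.50 ± 0.08 (limma, adjusted p = 2.94e-05) and ERN1 by -0.83 ± 0.17 (limma, adjusted p = 0.000382). These 4 genes kept their calls and directions with each array centred on its median and with quantile normalization. By sample name 6 of the 9 genes passed: the calls of ERN1 (-0.54; limma, adjusted p = 0.0829), XBP1 (limma, adjusted p = 0.0658) and EDEM1 (limma, adjusted p = 0.116) were lost, and DNAJC3 passed (-0.57; limma, adjusted p = 0.0168). The deposited values put the median of all genes 0.19 higher in Rh41, and centring put it at -0.07. With centring the split of all genes called was 4598 higher and 5477 lower, and with the deposited values it was 7202 higher and 2978 lower. HSPA5 differed by 0.27 as deposited and by 0.01 after centring, where it did not pass. XBP1 differed by 0.28 as deposited, by 0.02 after centring and by -0.01, the opposite direction, after quantile normalization. EDEM1 differed by 0.38 as deposited and by 0.12 after centring, without a call. SDF2L1 differed by -0.36 ± 0.13 (limma, adjusted p = 0.0223). DNAJC3, at -0.16 without a call, differed by -0.41 with a call after centring. Leaving out single DMSO arrays ended the calls of XBP1 (Rh41 replicate 2, Rh30 replicates 2 and 3), SDF2L1 (Rh41 replicate 1, Rh30 replicates 1 and 2) and EDEM1 (Rh41 replicates 1 and 3, Rh30 replicate 2), with an adjusted p of 0.0505 to 0.124 (limma).

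Over the 8 group means of the deposited values, the members spread unequally. DNAJB9 ranged over 1.76 log2, more than 83.9% of all genes, with its highest mean in Rh30 QC6352 and its lowest in Rh30 siControl. ERN1 ranged over 1.72 log2, more than 83.3% of genes, from its highest mean in shKDM4B to its lowest in Rh41 QC6352. DNAJC3 ranged over 1.54 log2 and ATF6 over 1.20. At the other end, XBP1 ranged over 0.37 log2, more than 3.9% of genes, and HSPA5 over 0.45, more than 8.1%. Thus, in deposited signal, HSPA5 and XBP1 were among the steadier genes of the series, and ERN1 and DNAJB9 among the more variable. ERN1 lay under the highest background probe set on all 20 arrays, so its range is a poor measure of its mRNA. The different medians of the array sets, given above, enter all these ranges.

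Ordered by group mean of the deposited values, HSPA5 was highest in Rh30 QC6352 (12.13 log2), followed by Rh41 DMSO (12.10), Rh41 QC6352 (11.92), shControl (11.87), siKDM4C (11.83), siControl (11.82), Rh30 DMSO (11.82) and shKDM4B (11.68). The ranges of the first 2 of these groups overlapped, as did those of siKDM4C, siControl and Rh30 DMSO with their neighbours, and the other neighbours did not overlap. With each array centred on its median, Rh30 QC6352 was still first, at 5.17 log2 over the array median, while Rh41 DMSO (4.86) stood below both siRNA groups and shControl and next to Rh30 DMSO (4.84), and Rh41 QC6352 was last (4.68). DNAJB9 was highest in Rh30 QC6352 (9.17), then in Rh41 QC6352 (8.96), Rh41 DMSO (8.54), shKDM4B (8.54), siKDM4C (8.17), Rh30 DMSO (7.88), shControl (7.76) and siControl (7.41). For DNAJB9, Rh41 DMSO overlapped shKDM4B, and Rh30 DMSO overlapped both siKDM4C and shControl. The XBP1 ranges of all neighbouring groups overlapped. ERN1 was lowest in Rh41 QC6352 (5.75) and Rh30 QC6352 (5.90), whose ranges overlapped, and Rh30 QC6352 overlapped Rh41 DMSO (6.43) as well.

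The genes whose group means followed HSPA5 most closely, by Pearson r over 8 group means among 8749 genes above the median level, were MYO19 (0.956), ATAT1 (0.947), TMED4 (0.942), ARHGEF39 (0.937) and CTR9 (0.926). These are descriptions over 8 points that share arrays, lines and controls, so no p is given. Among the members themselves, HSPA5 had r = 0.676 with XBP1 and -0.782 with ERN1, and ATF6 had -0.797 with HERPUD1.

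The rest of the pathway was read through lists of genes with related roles, each set beside the shares of all genes: 19.9% higher and 16.5% lower with QC6352 in Rh30, 10.9% and 8.80% in Rh41, 5.26% and 6.31% with the hairpin, and 10.5% and 9.45% for the difference between lines. Some genes named below lay under the highest background probe set in some of the compared groups, and the sizes of their changes are less certain. These lists too depended on the labels. By sample name, a grouping tried for the lists after seeing the data, 1 gene in all 7 lists passed with QC6352 in Rh30. That gene is in the list of ER translocation and early secretory transport. Of 9 other sensors and processing enzymes, 2 (22.2%) were higher and 2 lower with QC6352 in Rh30, near the shares of all genes. EIF2AK3, which encodes the sensor PERK, was at 8.998 to 9.162 log2 on Rh30 QC6352 arrays, against 8.23 to 8.41 on Rh30 DMSO arrays (0.76 ± 0.10; limma, adjusted p = 4.43e-06). It thus rose where ERN1 and ATF6 fell. CREB3, an ER-bound transcription factor related to ATF6, was 0.61 higher, and MBTPS1, the protease that makes the first cut in ATF6, was 0.44 lower on the log2 scale. In Rh41, 0 were higher and 3 lower with QC6352, the ATF6 paralogue ATF6B (-0.31), the XBP1 mRNA ligase subunit RTCB (-0.29) and CREB3L2 (-0.27). With the KDM4B hairpin, 0 were higher and 2 lower, CREB3L2 by -0.84 ± 0.11 and ATF6B by -0.71 ± 0.10, so both ATF6 and its paralogue fell there.

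Of 17 genes grouped here as the PERK-ATF4 arm, 8 (47.1%) were higher and 3 (17.6%) lower with QC6352 in Rh30, against 19.9% and 16.5% of all genes. The list holds ATF4 and genes related to it, and their mRNA levels do not show whether PERK was active. ATF3, a stress-induced transcription factor, was at 9.98 to 10.20 log2 on Rh30 QC6352 arrays, against 6.88 to 7.09 on Rh30 DMSO arrays (3.05 ± 0.13; limma, adjusted p = 1.31e-12). These DMSO values of ATF3 lay under the highest background probe set. DDIT3, which encodes the pro-apoptotic factor CHOP, was at 10.23 to 10.35 on QC6352 arrays, against 8.64 to 8.95 on DMSO arrays (1.53 ± 0.15; limma, adjusted p = 9.71e-08). ATF4 mRNA was at 8.06 to 8.13 on QC6352 arrays, against 9.64 to 9.78 on DMSO arrays (-1.61 ± 0.09; limma, adjusted p = 4.4e-11), the opposite direction to both. By sample name none of these 3 genes passed the limma test, with ATF3 at 0.02, DDIT3 at -0.39 and ATF4 at -0.20. In Rh41, 0 of the 17 were higher and 6 (35.3%) lower, against 10.9% and 8.80% of all genes, among them TRIB3 (-0.72), ATF4 (-0.65) and DDIT3 (-0.60). The difference between lines was -2.79 ± 0.18 for ATF3 and -2.13 ± 0.21 for DDIT3, and 10 of the 17 genes (58.8%) passed lower in Rh41 and 1 higher, against 9.45% and 10.5% of all genes.

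With the KDM4B hairpin, 10 of the 17 genes of this list (58.8%) were higher and 1 lower, against 5.26% and 6.31% of all genes. The list median was 0.59, against 0.03 over all genes. EIF2AK3, the gene of PERK itself, averaged 8.32 log2 on shKDM4B arrays, against 8.25 on shControl arrays, without a call. The cystine transporter SLC7A11 was at 7.70 to 7.90 log2 on shKDM4B arrays, against 5.43 to 5.80 on shControl arrays (2.19 ± 0.24; limma, adjusted p = 7.89e-06). It lay under the highest background probe set on every shKDM4B and shControl array, so the size of its change is less certain. The pseudokinase TRIB3 was 1.22 ± 0.15 higher and ATF3 0.91 ± 0.15 higher. ATF3 lay under the highest background probe set on the same arrays, and TRIB3 did so on the shControl arrays. ATF4 was at 10.43 to 10.52 on shKDM4B arrays, against 9.80 to 9.82 on shControl arrays. For ATF4 the QC6352 response minus the hairpin response was -2.27 ± 0.14 (limma, adjusted p = 1.52e-09), and for SLC7A11 it was -2.84 ± 0.31 (limma, adjusted p = 1.87e-06). In the siRNA comparison 0 of the 17 passed by limma, and 1 had an unadjusted p under 0.05.

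**Figure D4:**
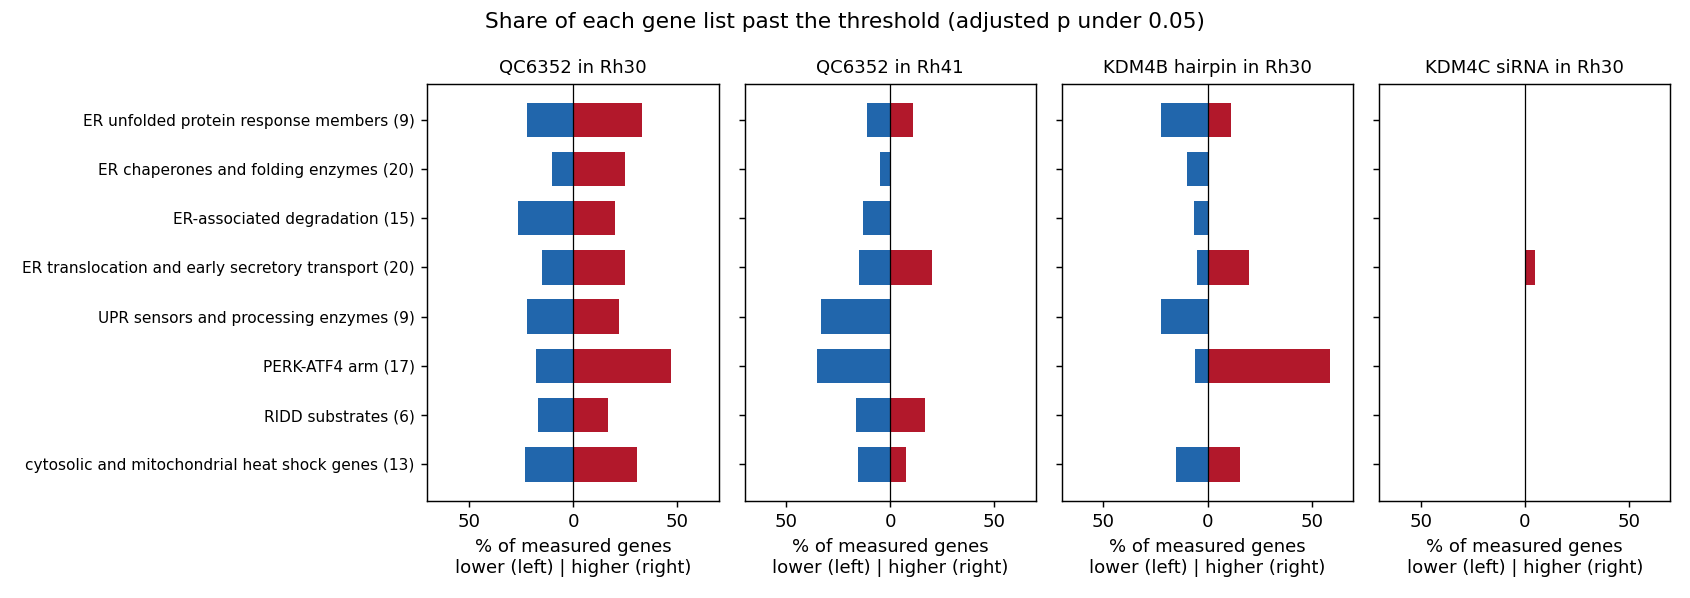
Percent of the measured genes of each list that passed the test over all genes, lower to the left (blue) and higher to the right (red), in the 4 treatment comparisons. The number of measured genes follows each list name. In the PERK-ATF4 arm, 8 genes were higher and 3 lower with QC6352 in Rh30, 0 and 6 in Rh41, 10 and 1 with the KDM4B hairpin, and 0 and 0 with siRNA against KDM4C.

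Of 20 other ER chaperones and folding enzymes, 5 (25%) were higher and 2 (10%) lower with QC6352 in Rh30, against 19.9% and 16.5% of all genes. ERO1B, an oxidase that drives disulfide formation, was 1.95 ± 0.22 higher (limma, adjusted p = 9.99e-07), and CRELD2, an ER-stress-induced protein of the same compartment, was 1.11 ± 0.12 higher (limma, adjusted p = 6.5e-07). On the Rh30 DMSO arrays ERO1B lay under the highest background probe set. SIL1, the nucleotide exchange factor of BiP, was 0.65 lower on the log2 scale. In Rh41, 0 were higher and 1 lower, the secreted ER stress protein MANF (-0.43 ± 0.14), and with the hairpin 0 were higher and 2 lower, MANF (-0.60 ± 0.17) and the glycoprotein folding sensor UGGT1 (-0.50 ± 0.13). Between the lines, 6 of the 20 responses (30%) passed, all lower in Rh41, against 9.45% of all genes, with CRELD2 at -1.20 ± 0.17.

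Of 15 other genes of ER-associated degradation, 3 (20%) were higher and 4 (26.7%) lower with QC6352 in Rh30, against 19.9% and 16.5% of all genes. SYVN1, the ubiquitin ligase HRD1, was at 10.45 to 10.62 log2 on Rh30 QC6352 arrays, against 9.68 to 9.79 on Rh30 DMSO arrays (0.82 ± 0.09; limma, adjusted p = 8.92e-07). Its partner SEL1L was 0.58 ± 0.12 higher, and the ubiquitin-conjugating enzyme UBE2G2 was 0.52 lower on the log2 scale. UBE2G2 fell with QC6352 in Rh41 too, by 0.97 on the log2 scale, where the ER membrane protein SELENOS was 0.41 lower. With the hairpin, 1 of the 15 passed, FAF2 (-0.45 ± 0.10). For SYVN1 the difference between lines was -0.93 ± 0.13 (limma, adjusted p = 5.19e-05), and for SEL1L it was -0.68 ± 0.18 (limma, adjusted p = 0.00913). SYVN1 averaged 9.62 log2 with QC6352 in Rh41, against 9.73 with DMSO, and SEL1L averaged 9.83, against 9.93.

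Of 20 genes of ER translocation and early secretory transport, 5 (25%) were higher and 3 (15%) lower with QC6352 in Rh30, and 4 (20%) and 3 (15%) in Rh41. KDELR3, a receptor that returns ER proteins from the Golgi, was 0.94 ± 0.14 higher in Rh30 and 0.97 ± 0.14 higher in Rh41. It lay under the highest background probe set on these Rh30 arrays and on the Rh41 DMSO arrays. For the difference between lines, 0 of the 20 passed by limma, against 20% of all genes. Before adjustment 8 of the 20 had a limma p under 0.05, as did 5432 of all 17687 genes. With the hairpin, 4 were higher and 1 lower, the translocon subunit SEC61B (-0.85 ± 0.14). With siRNA against KDM4C, the signal peptidase subunit SPCS3 was the 1 gene that passed in any of these pathway lists (0.63 ± 0.13; limma, adjusted p = 0.0421).

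Transcripts that IRE1 is known to cut (regulated IRE1-dependent decay) were followed as 6 genes. With QC6352 in Rh30, COL6A1 was 0.44 higher and HGSNAT 0.51 lower on the log2 scale, and in Rh41 PDGFRB was 0.43 higher and HGSNAT 0.74 lower. With the hairpin 0 of 6 passed by limma, and 1 had an unadjusted p under 0.05. For comparison outside the ER, 4 of 13 cytosolic and mitochondrial heat shock genes were higher and 3 lower with QC6352 in Rh30, 1 and 2 in Rh41, and 2 and 2 with the hairpin. As shares of the 13 these were 30.8% and 23.1%, 7.69% and 15.4%, and 15.4% and 15.4%, to be read against the shares of all genes given above. HSP90AB1 fell in both lines, by 0.63 in Rh30 and by 0.24 in Rh41 on the log2 scale. DNAJB1 was 0.82 ± 0.12 higher with QC6352 in Rh30 and -0.71 ± 0.15 with the hairpin.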

How the data were processed

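Total RNA of 20 samples was measured on Clariom S human arrays (Affymetrix), according to the labels' protocols. The authors deposited log2 signals per probe set, which were used as deposited. GCOS is named in the submitters' processing notes, and the normalization is not given in the sources used here. Of 24351 probe sets, 17709 carried 1 gene symbol. The probe set with the highest mean represented each gene, which gave 17687 genes and left out 22 second probe sets.

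Groups followed the sample titles (for siKDM4C replicate 2, the source name and treatment), and the grouping by sample name was an alternative. All 20 arrays entered 1 limma fit of 8 group means (limma 3.58.1, R 4.3.3; lmFit and eBayes without trend, 12 residual degrees of freedom). The Benjamini-Hochberg adjustment ran over 17687 genes, with a threshold of 0.05. Fold changes are differences of log2 group means with the standard error (SE). The fit was tested on simulated data. The number of arrays, 2 or 3 a group, limits the precision. The most similar pair of arrays differed by 0.199 log2 (root mean square), and none was counted as a duplicate. Replicate numbers were not shown to pair the arrays. The genes followed and the pathway lists were chosen with earlier results of these data known. Up to 3 genes per list and comparison were named, those with the largest change that passed without overlap between groups, besides all members and KDM4A to KDM4E. ATF4 on the hairpin arrays, MYOG and the genes compared across treatments were named after their values were seen.

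The alternatives were quantile normalization, centring on the array median, leaving out the lowest 40% of genes, eBayes with trend and robust, the compared arrays alone, the replicate block, an added fold threshold of 1.5 and leaving out each array.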

Additional observations from a re-analysis of the deposited data

Results flagged for a closer look

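The response to QC6352 differed between the lines, by the test of the difference itself, for 3 of the 9 genes. Of all genes 20% passed, made up of 9.45% of all genes lower and 10.5% higher. Taken as Rh41 minus Rh30 on the log2 scale, the difference was -0.49 ± 0.11 for HSPA5 (95% confidence interval -0.71 to -0.26; limma, adjusted p = 0.00311), -0.87 ± 0.19 for DNAJB9 (-1.27 to -0.46; limma, adjusted p = 0.00315) and -0.43 ± 0.11 for HERPUD1 (-0.67 to -0.19; limma, adjusted p = 0.0111). DNAJB9 was higher on all 3 QC6352 arrays than on all 3 DMSO arrays in each line. HSPA5 and HERPUD1 were higher on all Rh30 QC6352 arrays and lower on all Rh41 QC6352 arrays than on the DMSO arrays of the same line. The muscle marker mean was lower with QC6352 in Rh30, at 9.78 to 9.91 log2 against 10.89 to 10.95 with DMSO, and overlapped between treatments in Rh41. Its part in these differences was not tested.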

How the results depend on the processing

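The number of the 9 genes past the threshold depended on the labels. With groups by sample name it was 0 for QC6352 in Rh30, 0 for QC6352 in Rh41, 1 for the KDM4B hairpin, 0 for the difference between lines, 1 for QC6352 minus hairpin and 6 for DMSO, and ERN1 (0.19) and ATF6 (0.23) reversed for QC6352 in Rh30. Of 6 named pathway genes, DDIT3 (-0.39) and SEL1L (-0.20) reversed in that comparison too, and the other 4 lost their calls. Without the lowest 40% of genes it was 2 for siKDM4C and 6 for the difference between lines. With trend and robust it was 4 for QC6352 in Rh41, 2 for siKDM4C and 5 for the difference between lines. With an added fold threshold of 1.5 it was 2 for QC6352 in Rh30, 1 in Rh41, 1 for the difference between lines, 2 for QC6352 minus hairpin and 2 for DMSO. Leaving out each array gave 5 to 5 for QC6352 in Rh30, 0 to 2 in Rh41, 1 to 3 for the hairpin, 0 to 3 for siKDM4C, 3 to 5 for the difference between lines, 2 to 4 for QC6352 minus hairpin and 5 to 7 for DMSO. XBP1 reversed (-0.0083) between lines with DMSO after quantile normalization. ATF6 missed the threshold in the hairpin arrays alone (limma, adjusted p = 0.0524).

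Pairing was read from each array's deviations from its group means, not from the signals. Between QC6352 and DMSO arrays with the same replicate number, these deviations correlated by 0.06 to 0.26 in Rh30 and -0.19 to -0.06 in Rh41. With different numbers, they correlated by -0.16 to 0.09 and -0.07 to 0.13. The same-number value was 0.09 for the hairpin and -0.22 for the siRNA. With 2 arrays a group, the different-number values there are the same with the opposite sign. With the replicate block the count was 5 for QC6352 in Rh30, 2 in Rh41, 3 for the hairpin, 0 for the siRNA, 4 for the difference between lines, 4 for QC6352 minus hairpin and 8 for DMSO. ERN1 passed for the difference between lines with the block (0.68; limma, adjusted p = 0.0103).

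Of all genes, 0.503% (QC6352 in Rh30), 8.69% (Rh41), 4.1% (hairpin), 0% (siRNA), 4.31% (difference between lines) and 3.47% (QC6352 minus hairpin) passed by sample name. Without the lowest 40% of genes these were 57.4%, 32.2%, 23.7%, 3.21%, 33.4% and 43.1%. With trend and robust 2.48% passed for the siRNA. Fits of the compared arrays alone gave 4.67% for the hairpin and 0% for the siRNA. The added fold threshold gave 18.9% for QC6352 in Rh30, 7.84% in Rh41, 6.28% for the hairpin and 34.3% for DMSO. The Rh41 and hairpin arrays are grouped alike by title and by sample name, so their fold changes stayed and the shared spread widened. ERN1 with QC6352 in Rh41 was at -0.67 either way, with an SE of 0.26 by sample name and 0.17 by title. The cause of the other changes was not tested. All 9 genes lay at least 1.497 log2 above the background median of their array, and ERN1 lay under the highest background probe set on all 20 arrays.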

Other observations

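With siRNA against KDM4C, 13 of 13 cytosolic and mitochondrial heat shock genes had a negative difference, with a median of -0.21, against 0.02 over all genes. None passed the limma test over all genes, and 5 had an unadjusted p under 0.05, as did 2446 of all 17687 genes. Each group holds 2 arrays, and the share of all genes with a negative difference is not given here. The labels of these 4 arrays conflict, and their array medians were the lowest of the series.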
